A study of Homo sapiens with 12 samples.

Results

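The genes described here are 46 interferon-stimulated genes (ISGs), taken by name and found by symbol among the 60754 genes of each library. Their list was chosen with earlier results of these data known, so counts of ISGs beside all genes are descriptive. All 46 were matched to a single gene identifier. They were measured by RNA sequencing in the human acute myeloid leukemia (AML) lines Molm-14 and HL-60 after 36 h with or without duocarmycin SA (DSA), a compound that binds the minor groove of DNA and alkylates adenine. The question that the design addresses is how the transcripts of each line respond to a low and a high dose of DSA.

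There were 6 groups with 2 libraries each. Molm-14 cells, a monocytic line grown in RPMI with 10% FBS, were left without DSA (control) or received 11.1 pM (low dose) or 100 pM (high dose). HL-60 cells, a promyelocytic line grown in IMDM with 20% FBS, were left without DSA or received 112.7 pM (low dose) or 500 pM (high dose). Line, medium, serum and dose therefore cannot be told apart where the lines are compared. The sample labels call the controls untreated, and they do not say whether the 2 libraries of a group came from separate cultures, so a p-value here reflects only the spread within these pairs of libraries, which may be technical.

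Type I interferons bind a receptor made of IFNAR1 and IFNAR2, and the kinases JAK1 and TYK2 then phosphorylate STAT2. A complex that holds STAT2 and IRF9 binds interferon-stimulated response elements (ISREs) in promoters. The genes it drives encode RNA sensors, restriction factors at membranes, GTPases, and enzymes that attach the ubiquitin-like protein ISG15 to other proteins. Interferon gamma acts through gamma-activated sites, and IRF family factors can also bind ISREs directly. Some ISGs are made at a basal level in blood cells without added interferon.

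Library totals ran from 21177424 to 63927449 expected counts, and the 46 ISGs took between 0.0432% and 0.108% of them. The label of the first line reads M14 in the sample names. Its 5 markers (HOXA9, HOXA10, MEIS1, FLT3 and CSF1R) summed to between 660 and 675 CPM (counts relative to a library total scaled by the trimmed mean of M values) in its controls and to between 13.4 and 15.0 CPM in HL-60 controls, and the melanoma markers MLANA and TYR were at 0 in all 12 libraries. The 5 promyelocyte granule genes of the HL-60 list summed to between 18400 and 18600 CPM in HL-60 controls and to between 3540 and 3650 CPM in Molm-14 controls. Of these 5, MPO and PRTN3 were higher in HL-60 controls, and ELANE, AZU1 and CTSG were lower. In bulk RNA, more cells with a transcript and more transcript per cell cannot be told apart.

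Stretches of promoter are shown for 8 of the ISGs that hold the core of the ISRE, the site bound by the complex described above. RefSeq promoters (GRCh38.p14, from 250 bases before to 50 bases after the start) were available for 36 of the 46 ISGs. The core was searched on both strands as GAAA, any 2 bases and GAAA, and it occurred in 23 of these 36 (63.9%) and in 3.65% of all 27305 promoters. The gamma-activated site, searched on both strands as TTC, any 3 bases and GAA, occurred in 9 of 36 (25%) and in 7.88% of all promoters. Both occurred in 5 promoters, those of IFITM1, BST2, PARP14, IFI27 and EPSTI1, and the matches can overlap. Each sequence below reads 5′ to 3′ on the strand of its gene, capitals mark the core, and a core on the opposite strand reads TTTC, 2 bases and TTTC. By GENCODE release 44 none of the 8 stretches overlapped an exon. Those of ISG15 and IFIT3 lay in introns of longer transcripts of the same gene, that of IFI6 lay in an intron of a non-coding gene on the opposite strand, and the other 5 were intergenic.
ISG15, the ubiquitin-like protein (chr1:1013364-1013419, plus strand): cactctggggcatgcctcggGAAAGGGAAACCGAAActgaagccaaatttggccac
IFIT3, an antiviral protein with tetratricopeptide repeats (chr10:89327821-89327904, plus strand): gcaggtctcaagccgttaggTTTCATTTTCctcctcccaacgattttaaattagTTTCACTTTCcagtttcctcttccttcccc
HERC5, the main ligase for ISG15 (chr4:88456974-88457074, plus strand): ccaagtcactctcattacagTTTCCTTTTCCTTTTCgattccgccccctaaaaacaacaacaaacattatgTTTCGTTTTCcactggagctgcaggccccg
PARP14, a mono-ADP-ribosyltransferase (chr3:122680790-122680838, plus strand): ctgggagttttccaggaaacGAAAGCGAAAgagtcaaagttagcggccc
IFI6, a small interferon-induced membrane protein (chr1:27672256-27672368, minus strand): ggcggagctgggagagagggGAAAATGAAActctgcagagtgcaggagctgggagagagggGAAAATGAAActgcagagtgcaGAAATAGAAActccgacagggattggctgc
IFI44, an interferon-induced cytoplasmic protein (chr1:78649751-78649788, plus strand): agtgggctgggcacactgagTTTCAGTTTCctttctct
LGALS3BP, a secreted galectin-binding glycoprotein (chr17:78979952-78980001, minus strand): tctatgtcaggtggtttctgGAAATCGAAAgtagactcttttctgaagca
SAMD9, a cytoplasmic antiviral factor (chr7:93118086-93118135, minus strand): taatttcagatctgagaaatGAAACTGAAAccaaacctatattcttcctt
The first 7 genes rose in HL-60 cells at 500 pM DSA and SAMD9 fell. A match is a description of letters and does not show that a factor bound there.

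ISGs rose with DSA in HL-60 cells at both doses and in part in Molm-14 cells at the high dose. Of the 46, 45 passed the filter on low counts and were tested with edgeR's quasi-likelihood test, with p-values adjusted by the Benjamini-Hochberg method over all 13422 genes tested and a threshold of 0.05. IFI44L was not tested. The filter was at 0.293 CPM, 37 ISGs reached it in all 12 libraries and 8 in some. GBP1 passed it only through the HL-60 libraries at 500 pM, so it had to differ. Without GBP1, 41 of 44 ISGs rose at 500 pM, 32 of them beyond a fold change of 2, with a median log2 fold change of 1.61. IFI27 reached the filter in 2 libraries, both of HL-60 cells with DSA, and did not pass the test at any dose. EPSTI1 reached the filter in 3 libraries, all of HL-60 cells with DSA, so the filter favoured its rise there. EPSTI1 is counted among the ISGs that rose at both HL-60 doses, also in the 41 without GBP1. At 500 pM it did not pass with edgeR when no filter on low counts was used.

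In HL-60 cells at 500 pM, 42 of the 45 ISGs tested rose and 1 (SAMD9) fell, beside 35.8% of all genes tested that rose and 37.8% that fell. At 112.7 pM, 36 rose and 1 fell, beside 24.2% and 27.4% of all genes. In Molm-14 cells at 100 pM, 18 rose and 2 fell, and 22.9% and 21.9% of all genes did so. At 11.1 pM, 1 ISG rose, beside 0.969% of all genes, and none fell by edgeR, DESeq2 or limma-voom, with 1 lower at an unadjusted p under 0.05 and 0.238% of all genes called lower. The median log2 fold change of the 45 ISGs was 1.65 at 500 pM and 0.81 at 112.7 pM in HL-60 cells, where the median of all genes was 0. In Molm-14 cells it was 0.27 at 100 pM and 0.01 at 11.1 pM, where the median of all genes was 0.004 and -0.005. With a fold change over 2 asked as well, 33 ISGs rose in HL-60 cells at 500 pM (16.5% of all genes), 14 at 112.7 pM (5.57%), and 2 in Molm-14 cells at 100 pM (3.29%). The ISGs that fell did so by less than that at every dose, and 0.73% of all genes fell beyond it in Molm-14 cells at 100 pM, 0.291% in HL-60 cells at 112.7 pM and 2.05% at 500 pM. At 11.1 pM no ISG passed it in either direction, and 0.00745% and 0.0149% of all genes did.

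Counted without a test, both libraries at 500 pM lay above both controls for 44 of the 45 ISGs tested and below them for 1, beside 41.6% and 42.8% of all genes. At 112.7 pM the counts were 42 and 1 (36.5% and 37.8% of all genes). In Molm-14 cells they were 26 and 5 at 100 pM (37.7% and 34.5%) and 5 and 8 at 11.1 pM (20.2% and 22.7%). Between the doses they were 41 and 2 in HL-60 cells (36.8% and 36.4%) and 25 and 5 in Molm-14 cells (35.3% and 32.1%). HL-60 controls lay above those of Molm-14 for 15 and below for 27 (47.9% and 43.6%). GBP1, which had to differ at 500 pM because of the filter, is among the 44, the 42 and the 41. IFI27 and EPSTI1 reached the filter only in HL-60 libraries with DSA. Both are among the 44 and the 42, and the filter favoured their place there.

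**Figure D1:**
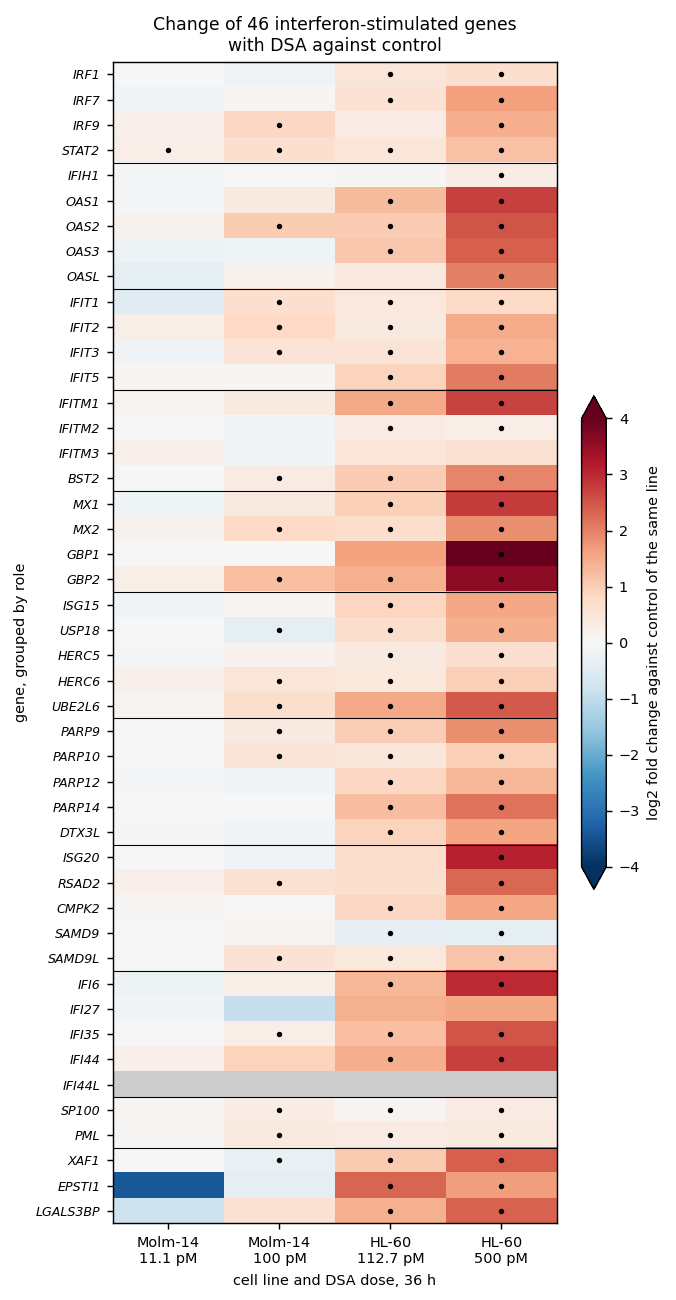
Log2 fold change of each of the 46 ISGs (rows, grouped by role) against the control of the same line, for 4 combinations of line and DSA dose (columns). Colour gives the log2 fold change from edgeR, a dot marks an adjusted p under 0.05, and the grey row is IFI44L, which was not tested. The HL-60 columns hold 36 and 42 dots on red, and the 11.1 pM column of Molm-14 holds 1. The dark blue cell of EPSTI1 rests on 12 counts in the controls and 1 at 11.1 pM.

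**Figure D2:**
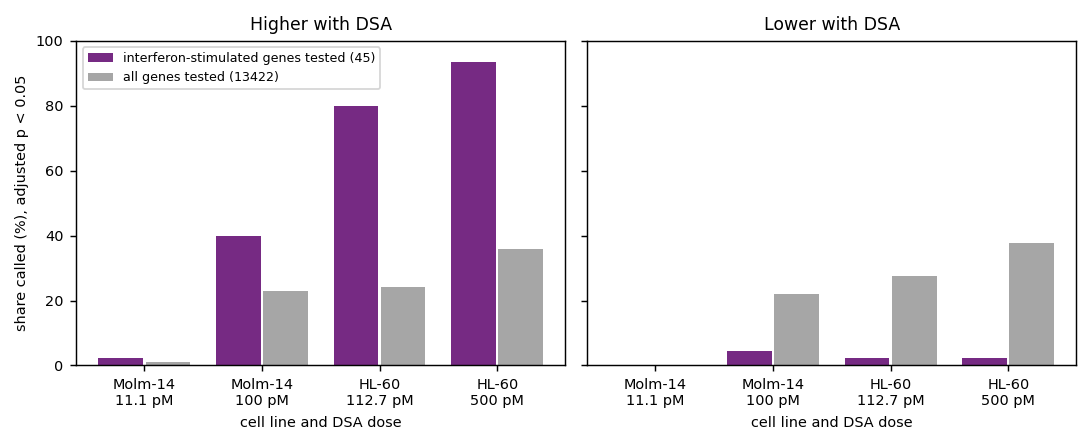
Share of the 45 ISGs tested (purple) and of all 13422 genes tested (grey) that rose (left) or fell (right) at an adjusted p under 0.05, by line and DSA dose. In HL-60 cells at 500 pM the purple bar for higher stands at 42 of 45 genes and the grey bar at 35.8%.

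The 4 transcription factors of the interferon response all rose in HL-60 cells at 500 pM (35.8% of all genes). Of these 4, 2 rose in Molm-14 cells at 100 pM (22.9% of all genes). STAT2, a subunit of the complex that binds ISREs, stood at 21.8 and 21.7 CPM in the HL-60 controls, at 32.2 and 28.7 CPM with 112.7 pM, and at 50.7 and 48.3 CPM with 500 pM. Molm-14 cells had 39.9 and 41.8 CPM in controls, 48.8 and 48.6 CPM with 11.1 pM, and 65.6 and 65.5 CPM with 100 pM. The groups did not overlap within either line, and every step was upward. The log2 fold change of STAT2 was 1.19 ± 0.0549 (SE, adjusted p = 6.13e-13) at 500 pM, and it was 0.68 ± 0.0504 (adjusted p = 2.97e-09) at 100 pM in Molm-14 cells. STAT2 was the ISG that passed at 11.1 pM, with 0.25 ± 0.0516 (adjusted p = 0.0173), and it no longer passed when any of the 4 libraries compared was left out, with values from 0.22 to 0.286.

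IRF9, the DNA-binding partner of STAT2, stood at 2.75 and 3.83 CPM in Molm-14 controls, at 4.11 and 3.5 CPM with 11.1 pM, and at 5.54 and 6.30 CPM with 100 pM. In HL-60 cells it stood at 2.17 and 2.38 CPM in controls, at 3.23 and 2.55 CPM with 112.7 pM, and at 7.21 and 5.44 CPM with 500 pM. The high-dose libraries of each line were above all of its other libraries. A protein-coding read-through gene on the same strand shares exons with IRF9 and held 109 to 611 expected counts per library, so the split between them is uncertain. The rise of 0.84 in Molm-14 cells at 100 pM (adjusted p = 0.000696) became 0.284 (adjusted p = 0.0902) when both were summed, an alternative chosen after seeing the data. The rise of 1.44 in HL-60 cells at 500 pM (adjusted p = 7.48e-07) became 0.704 for the sum (adjusted p = 2.01e-05).

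IRF7, the factor that amplifies interferon production, stood at 5.31 and 4.80 CPM in HL-60 controls, at 6.84 and 8.0 CPM with 112.7 pM, and at 17.2 and 14.7 CPM with 500 pM. The rise at 500 pM was 1.65 ± 0.0981 on the log2 scale. In Molm-14 cells all 6 libraries lay between 13.9 and 15.7 CPM, and no dose passed the test. IRF1, an early target of interferon gamma signaling, stood at 25.2 and 26.8 CPM in HL-60 controls, at 37.7 and 35.1 CPM with 112.7 pM, and at 41.2 and 42.4 CPM with 500 pM. Over the 6 Molm-14 libraries it ran from 26.9 to 31.7 CPM. A gene on the strand opposite to IRF1 held 155 and 270 counts in HL-60 controls and 59.1 and 42.1 counts with 500 pM. The sources used here do not say whether reads were counted by strand, and without strand, reads of overlapping genes cannot be told apart.

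Among RNA sensors and the OAS family, 5 of 5 rose in HL-60 cells at 500 pM (35.8% of all genes). In Molm-14 cells at 100 pM 1 of 5 rose (22.9% of all genes). The OAS enzymes make 2-5A, the second messenger that activates RNase L. OAS3 stood at 16.2 and 15.1 CPM in HL-60 controls, at 32.4 and 33.8 CPM with 112.7 pM, and at 82.9 and 81.0 CPM with 500 pM, and no group overlapped another. Its log2 fold change at 500 pM was 2.39 ± 0.0594 (adjusted p = 1.06e-16). In Molm-14 cells OAS3 lay between 1.80 and 2.40 CPM in all 6 libraries. OAS2 moved in both lines. It stood at 1.74 and 1.91 CPM in Molm-14 controls, at 2.15 and 1.86 CPM with 11.1 pM, and at 4.04 and 3.37 CPM with 100 pM, a rise of 1.02 ± 0.204 (adjusted p = 0.00045). In HL-60 cells it went from 0.349 and 0.204 CPM through 0.434 and 0.605 CPM to 1.64 and 1.41 CPM. OAS1 rose by 2.75 ± 0.154 and OASL, a family member without the enzyme activity, by 2.01 ± 0.221 in HL-60 cells at 500 pM. IFIH1, the sensor MDA5 of long double-stranded RNA, rose by 0.29 ± 0.0724 there, the smallest rise of these 5 genes.

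All 4 IFIT genes, whose products bind viral RNA, rose in HL-60 cells at both doses (24.2% and 35.8% of all genes). In Molm-14 cells at 100 pM 3 of them rose (22.9% of all genes). IFIT2 stood at 1.83 and 1.61 CPM in Molm-14 controls, at 2.36 and 1.72 CPM with 11.1 pM, and at 2.85 and 3.16 CPM with 100 pM. The controls and the high dose did not overlap, and the log2 fold change was 0.80 ± 0.176 (adjusted p = 0.00106). In HL-60 cells IFIT2 stood at 4.43 and 4.24 CPM in controls, at 5.88 and 5.31 CPM with 112.7 pM, and at 12.2 and 12.01 CPM with 500 pM. IFIT1 rose by 0.69 in Molm-14 cells at 100 pM (adjusted p = 0.0277) and IFIT3 by 0.55 (adjusted p = 0.0286), and neither passed with DESeq2 or limma-voom. At 112.7 pM in HL-60 cells IFIT1 (0.412) and IFIT2 (0.364) did not pass with DESeq2 (0.46 and 0.416). IFIT1 also did not pass without control replicate 2 (0.339) or 112.7 pM replicate 1 (0.396) or 2 (0.432), nor did IFIT2 without control replicate 1 (0.39) or 2 (0.33) or 112.7 pM replicate 1 (0.295) or 2 (0.447). IFIT5 rose by 2.07 ± 0.212 in HL-60 cells at 500 pM, and its change in Molm-14 cells was 0.06 ± 0.191. LIPA, a lysosomal lipase gene on the opposite strand, spans IFIT1, IFIT2 and IFIT3.

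Of the 4 restriction factors at membranes, 3 rose in HL-60 cells at 500 pM (35.8% of all genes). In Molm-14 cells at 100 pM 1 of them rose (22.9% of all genes). BST2 (tetherin), which holds budding virions at the cell surface, stood at 12.2 and 12.6 CPM in HL-60 controls, at 23.9 and 25.8 CPM with 112.7 pM, and at 48.5 and 48.0 CPM with 500 pM. In Molm-14 cells its controls stood at 61.0 and 59.3 CPM and the 100 pM libraries at 75.5 and 76.1 CPM, a rise of 0.33 ± 0.0433 (adjusted p = 4.41e-06). The 500 pM libraries of HL-60 thus stayed under the Molm-14 controls. IFITM1, which blocks viral entry at the plasma membrane, went from 0.697 and 0.526 CPM through 1.35 and 1.95 CPM to 3.32 and 4.36 CPM in HL-60 cells, and the groups did not overlap. Its rise was 1.5 ± 0.278 at 112.7 pM and 2.71 ± 0.234 at 500 pM. IFITM2 rose by 0.28 ± 0.056 at 500 pM. IFITM3 had a value of 0.62 ± 0.344 there and did not pass (adjusted p = 0.111). The 3 IFITM genes are near-identical in sequence, and reads could have been split among them.

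The MX and GBP genes encode interferon-induced GTPases. GBP2 stood at 2.95 and 3.19 CPM in HL-60 controls, at 8.19 and 8.37 CPM with 112.7 pM, and at 38.9 and 35.6 CPM with 500 pM. Molm-14 libraries of GBP2 stood at 4.17 and 4.69 CPM in controls, at 4.98 and 5.35 CPM with 11.1 pM, and at 9.83 and 10.7 CPM with 100 pM. The libraries rose in the order of dose in both lines without overlap. The log2 fold change was 3.59 ± 0.093 (adjusted p = 1.87e-16) at 500 pM and 1.2 ± 0.104 (adjusted p = 2.48e-08) at 100 pM, the largest increase that passed in Molm-14 cells. GBP1, a GTPase induced mainly by interferon gamma, had 0 counts in all 6 Molm-14 libraries. In HL-60 cells it had 0 and 1 counts in controls, 1 and 1 with 112.7 pM, and 14 and 24 with 500 pM. The ratio of the CPM at 500 pM to those in controls was 67.8, with a 95% exact interval of 11.5 to 2750 that covers counting error only.

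MX1, which traps viral nucleocapsids in the cytoplasm, stood at 0.778 and 0.713 CPM in HL-60 controls, at 1.69 and 1.24 CPM with 112.7 pM, and at 5.76 and 4.70 CPM with 500 pM, a rise of 2.80 ± 0.224. All 6 Molm-14 libraries lay between 0.715 and 1.27 CPM. MX2, which acts at the nuclear envelope, rose in both lines. It stood at 3.26 and 3.53 CPM in Molm-14 controls, at 3.99 and 3.47 CPM with 11.1 pM, and at 5.32 and 6.45 CPM with 100 pM (log2 fold change 0.79 ± 0.143, adjusted p = 0.000174). In HL-60 cells it went from 2.33 and 2.38 CPM through 3.66 and 3.97 CPM to 7.96 and 8.94 CPM.

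Genes of the ISG15 system all rose in HL-60 cells at both doses (5 of 5, beside 24.2% and 35.8% of all genes). In Molm-14 cells at 100 pM 2 rose and 1 fell, beside 22.9% and 21.9% of all genes. ISG15 itself stood at 8.69 and 8.84 CPM in HL-60 controls, at 16.1 and 15.8 CPM with 112.7 pM, and at 28.4 and 23.3 CPM with 500 pM, a rise of 1.54 ± 0.0936. Its 6 Molm-14 libraries ran from 7.75 to 9.99 CPM and no dose passed. UBE2L6, the conjugating enzyme that passes ISG15 to its ligase, stood at 8.61 and 6.89 CPM in HL-60 controls, at 21.5 and 22.2 CPM with 112.7 pM, and at 40.6 and 42.6 CPM with 500 pM. In Molm-14 cells it went from 5.44 and 5.86 CPM through 6.35 and 5.84 CPM to 8.58 and 9.70 CPM. Both lines thus had high-dose libraries above all others, and the rises were 2.45 ± 0.0865 and 0.69 ± 0.113.

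USP18, which removes ISG15 from proteins and dampens the interferon receptor, moved in opposite directions. In HL-60 cells it stood at 1.90 and 2.10 CPM in controls, at 3.28 and 3.36 CPM with 112.7 pM, and at 5.34 and 5.59 CPM with 500 pM, a rise of 1.44 ± 0.136. Molm-14 libraries stood at 9.80 and 9.21 CPM in controls, at 10.1 and 8.93 CPM with 11.1 pM, and at 7.23 and 7.74 CPM with 100 pM, and it fell by 0.35 on the log2 scale (adjusted p = 0.0129). That fall did not pass with DESeq2 (-0.351), nor when control replicate 1 (-0.301) or 100 pM replicate 1 (-0.295) was left out. The ligases HERC5 and HERC6 rose by 0.63 ± 0.0725 and 0.97 ± 0.115 in HL-60 cells at 500 pM, and HERC6 rose by 0.49 ± 0.156 in Molm-14 cells at 100 pM. That rise did not pass with thinned libraries (0.383), or without control replicate 1 (0.483) or 2 (0.499) or 100 pM replicate 2 (0.263).

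**Figure D3:**
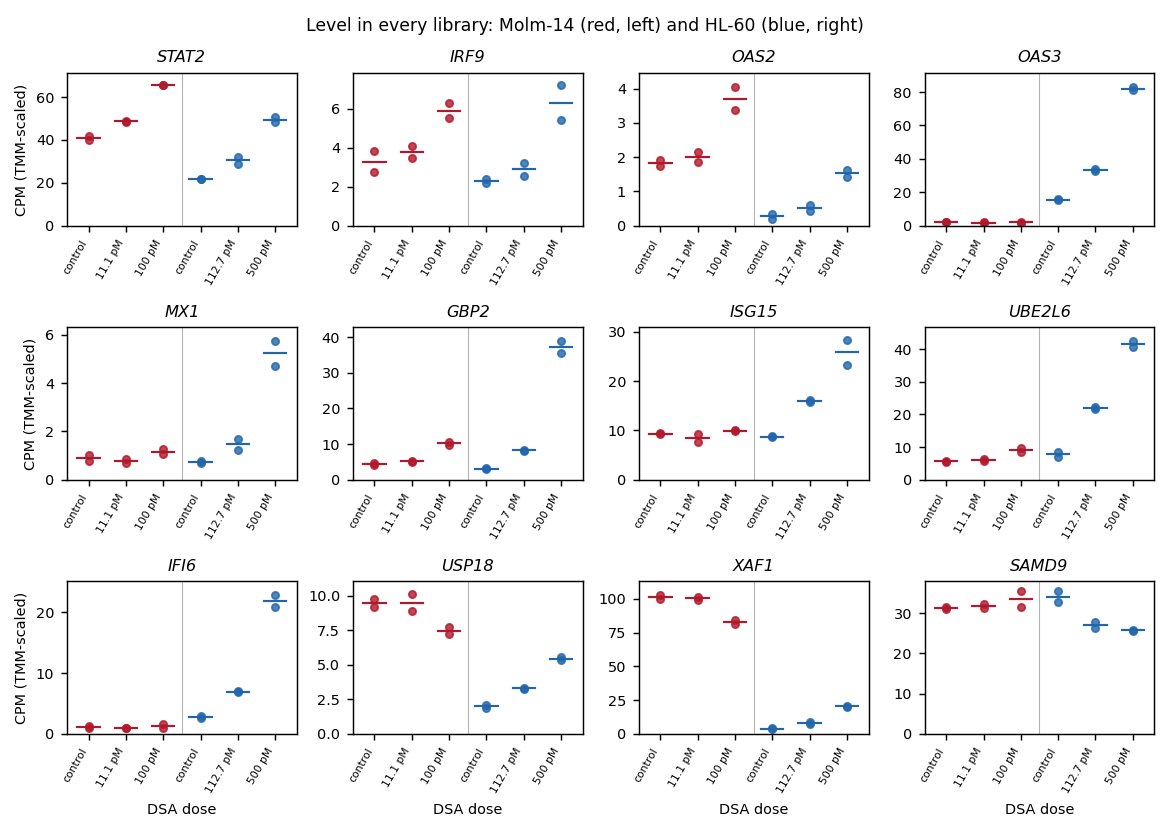
CPM of 12 ISGs in every library (points) and the mean of each group of 2 (bars), with Molm-14 in red on the left and HL-60 in blue on the right of each panel. All axes start at 0. In HL-60 cells 11 of the 12 genes climb from control to 500 pM and SAMD9 declines, while in Molm-14 cells STAT2, IRF9, OAS2, GBP2 and UBE2L6 are higher at 100 pM and USP18 and XAF1 are lower.

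The PARP genes and DTX3L, enzymes of ADP-ribosylation and a ubiquitin ligase that acts with PARP9, rose together in HL-60 cells. At each dose 5 of 5 rose there, beside 24.2% and 35.8% of all genes. In Molm-14 cells at 100 pM 2 of 5 rose (22.9% of all genes). PARP14 stood at 15.0 and 14.1 CPM in HL-60 controls, at 34.4 and 33.1 CPM with 112.7 pM, and at 63.2 and 66.0 CPM with 500 pM, a rise of 2.16 ± 0.0515 (adjusted p = 6.76e-17). All 6 Molm-14 libraries lay between 67.9 and 70.4 CPM, so the 500 pM libraries of HL-60 came up to just under the level of Molm-14. DTX3L rose by 1.57 ± 0.0648, PARP9 by 1.87 ± 0.0959 and PARP12 by 1.33 ± 0.102 in HL-60 cells at 500 pM. PARP10 rose in both lines, by 0.95 ± 0.056 at 500 pM and by 0.50 ± 0.0479 at 100 pM. PARP9 overlaps DTX3L and PARP10 overlaps GRINA, each on opposite strands.

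Of the enzymes of nucleic acids and nucleotides and the SAMD9 genes, 4 rose and 1 fell in HL-60 cells at 500 pM. The shares of all genes were 35.8% and 37.8%. ISG20, an exonuclease that degrades single-stranded RNA, stood at 0.510 and 0.475 CPM in HL-60 controls, at 0.578 and 0.974 CPM with 112.7 pM, and at 5.01 and 3.35 CPM with 500 pM. The rise at 500 pM was 3.06 ± 0.326 (adjusted p = 8.65e-08), and 112.7 pM did not pass. In Molm-14 cells ISG20 ran from 0.392 to 0.858 CPM. SAMD9 was the ISG that fell in HL-60 cells. It stood at 35.4 and 32.7 CPM in controls, at 27.8 and 26.2 CPM with 112.7 pM, and at 25.7 and 25.9 CPM with 500 pM. The treated libraries were all below the controls, and the value was -0.33 ± 0.0644 at 112.7 pM and -0.40 ± 0.0641 at 500 pM (adjusted p = 1.84e-05). Its neighbour and paralog SAMD9L rose, from 14.3 and 14.1 CPM through 18.4 and 19.5 CPM to 31.3 and 31.1 CPM. In Molm-14 cells SAMD9 stood between 31.2 and 35.6 CPM and SAMD9L rose by 0.57 ± 0.0868 at 100 pM.

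RSAD2 (viperin), which makes a chain-terminating nucleotide, and its neighbour CMPK2, a mitochondrial nucleotide kinase, overlap on opposite strands. RSAD2 had 3 and 3 counts in HL-60 controls and 11 and 6 with 500 pM, a CPM ratio of 5.06 (95% exact interval 1.90 to 15.7, counting error only). In Molm-14 cells it had 91 and 136 counts in controls and 199 and 171 with 100 pM, a rise of 0.62 ± 0.198 (adjusted p = 0.0166) that DESeq2 did not pass. CMPK2 rose by 1.55 ± 0.159 in HL-60 cells at 500 pM, and in Molm-14 cells it ran from 11.2 to 13.3 CPM.

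The IFI genes held some of the largest changes of HL-60 cells. IFI6, a membrane protein that limits viral replication, stood at 2.92 and 2.60 CPM in HL-60 controls, at 6.89 and 6.99 CPM with 112.7 pM, and at 22.8 and 20.9 CPM with 500 pM, a rise of 2.99 ± 0.144 (adjusted p = 1.11e-12). The Molm-14 libraries ran from 0.897 to 1.63 CPM. IFI44 went from 0.402 and 0.645 CPM through 1.64 and 1.34 CPM to 3.75 and 3.5 CPM in HL-60 cells. Its rise of 1.44 ± 0.32 at 112.7 pM was among the 5 largest at that dose. IFI35, which binds NMI, rose by 2.52 ± 0.094 in HL-60 cells at 500 pM and by 0.27 ± 0.0748 in Molm-14 cells at 100 pM. The latter did not pass with DESeq2 (0.263), with thinned libraries (0.2), or without control replicate 1 (0.254) or 100 pM replicate 1 (0.24). IFI27 and IFI44L stayed at few counts. IFI27 had at most 10 counts in any library and did not pass at any dose. IFI44L had 4 and 2 counts with 500 pM in HL-60 cells, 0 in the other 4 HL-60 libraries and 0 or 1 in Molm-14 cells.

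SP100 and PML, which build nuclear bodies, rose by small amounts of like size in both lines at the high dose. PML rose by 0.38 ± 0.0376 in HL-60 cells and by 0.39 ± 0.0418 in Molm-14 cells, and SP100 by 0.33 ± 0.0486 and 0.28 ± 0.0482. Both rose in the order of dose in every library of both lines.

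XAF1, which binds and counters the caspase inhibitor XIAP, moved in opposite directions. It stood at 4.48 and 3.51 CPM in HL-60 controls, at 7.47 and 8.5 CPM with 112.7 pM, and at 20.0 and 20.9 CPM with 500 pM, a rise of 2.39 ± 0.0899 (adjusted p = 3.35e-14). Its Molm-14 libraries stood at 103 and 99.8 CPM in controls, at 99.0 and 102 CPM with 11.1 pM, and at 81.5 and 84.5 CPM with 100 pM, and it fell by 0.29 on the log2 scale (adjusted p = 0.00011). LGALS3BP went from 3.27 and 3.33 CPM through 8.82 and 9.01 CPM to 17.2 and 17.0 CPM in HL-60 cells, a rise of 1.43 ± 0.159 at 112.7 pM and 2.37 ± 0.15 at 500 pM. EPSTI1, an interferon-induced gene first described in epithelial-stromal contact, rested on few counts and passed the filter only through HL-60 libraries with DSA. In HL-60 cells it had 2 and 5 counts in controls, 9 and 10 with 112.7 pM (log2 fold change 2.33 ± 0.618, adjusted p = 0.00402), and 4 and 9 with 500 pM. In Molm-14 cells it had 7 and 5, 0 and 1, and 4 and 6 counts. DESeq2 gave no adjusted p for EPSTI1 at 112.7 pM, and at 500 pM the gene passed with edgeR (adjusted p = 0.0315) but not with DESeq2. With edgeR the rise at 500 pM did not pass with no filter on low counts. Nor did it without HL-60 control replicate 1 or 2 or 500 pM replicate 2.

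The libraries of HL-60 cells followed the order of dose for most ISGs. For 39 of them both 112.7 pM libraries lay above both controls and both 500 pM libraries above both at 112.7 pM, an order that 22.6% of all genes tested had. SAMD9 alone had the falling order, which 23.3% of all genes had. In Molm-14 cells 5 ISGs (STAT2, GBP2, HERC6, SP100 and PML) had the rising order, beside 9.6% of all genes, and DTX3L had the falling order, beside 10.8%. Between the doses of HL-60 cells 38 ISGs rose (25.9% of all genes). None fell by edgeR, DESeq2 or limma-voom, also at an unadjusted p under 0.05, beside 26.8% of all genes. Leaving out 500 pM replicate 1 gave 1 that fell. In Molm-14 cells 18 rose and 2 fell between the doses, beside 19.6% and 18.5% of all genes. Beyond a fold change of 2, 18 ISGs rose between the doses of HL-60 cells (8.15% of all genes, and 0.723% fell), and 3 rose in Molm-14 cells (2.26%, and 0.618% fell). Both steps of HL-60 use the libraries at 112.7 pM, so the counts of the steps are not independent. GBP1 is among the 39, the 38 and the 18 of HL-60 cells, and its rise at 500 pM was fixed by the filter. Without GBP1, 37 of 44 tested ISGs rose between the doses of HL-60 cells, 17 of them beyond a fold change of 2.

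The change at the high dose was higher in HL-60 than in Molm-14 cells for most ISGs. The difference between the changes (HL-60 minus Molm-14, tested as an interaction) was above 0 for 34 ISGs and below 0 for SAMD9, beside 25.1% and 30.3% of all genes, and its median was 1.61 on the log2 scale. Beyond a fold change of 2 it was higher for 25 ISGs (10.1% of all genes) and lower for none of those called (2.21%). The largest differences that passed were those of ISG20 (3.19 ± 0.533), IFI6 (2.75 ± 0.302), XAF1 (2.68 ± 0.103), OAS3 (2.57 ± 0.173) and MX1 (2.46 ± 0.361), and that of SAMD9 was -0.49 ± 0.0896. For 10 tested ISGs the difference did not pass, among them PML (-0.01 ± 0.0562), SP100 (0.05 ± 0.0684) and IFIT1 (0.12 ± 0.286).

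**Figure D4:**
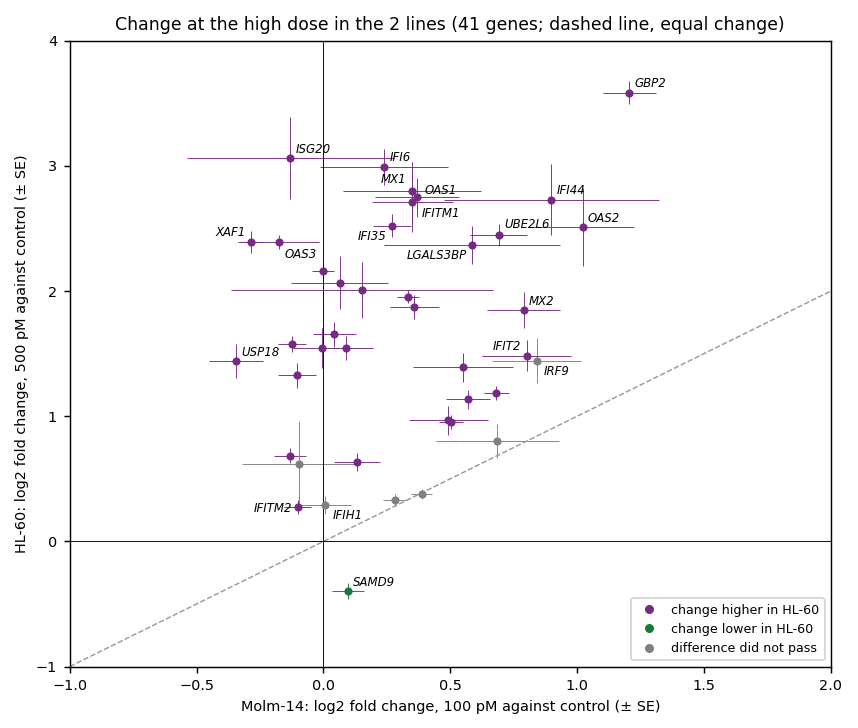
Log2 fold change at the high dose in Molm-14 (100 pM, horizontal) and HL-60 cells (500 pM, vertical) for 41 ISGs, with bars of 1 SE and a dashed line where both are equal. GBP1, IFI27, EPSTI1 and RSAD2 are left out for few counts and IFI44L was not tested. Purple points, where the change was higher in HL-60, fill the space above the line, SAMD9 (green) lies below it, and the grey points are genes whose difference did not pass.

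Doses of 112.7 pM in HL-60 and 100 pM in Molm-14 cells were closer to each other. There the difference was above 0 for 20 ISGs (16.7% of all genes) and below 0 for 2 (21% of all genes), with a median of 0.61. Beyond a fold change of 2 there were 8 (2.66%) and 0 (1.18%). EPSTI1 (2.67 ± 0.899), XAF1 (1.33 ± 0.122), OAS3 (1.26 ± 0.171), PARP14 (1.22 ± 0.0713) and IFITM1 (1.15 ± 0.321) had the largest differences. EPSTI1 passed the filter on low counts only through HL-60 libraries with DSA, so the filter favoured its place here. Below 0 were SAMD9 (-0.43 ± 0.0897) and STAT2 (-0.20 ± 0.0776). STAT2 did not pass under most alternatives, with adjusted p = 0.0489 here. EPSTI1 did not pass with no filter on low counts (2.69), and DESeq2 and thinned libraries gave it no adjusted p. It also did not pass without Molm-14 control replicate 1 (2.38), Molm-14 100 pM replicate 1 (2.36), HL-60 control replicate 1 (2.45) or 2 (3.07), or HL-60 112.7 pM replicate 1 (2.5). IFITM1 did not pass without HL-60 control replicate 2 (0.92) or 112.7 pM replicate 2 (0.83). This comparison and the one at the high doses share the control libraries of both lines.

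Without DSA more ISGs were lower than higher in HL-60 cells, while more of all genes were higher than lower. The median log2 fold change of HL-60 over Molm-14 controls was -0.524 for the 44 tested ISGs without GBP1 and 0.058 for all genes. Of the 45 tested, 13 were higher and 24 lower in HL-60 than in Molm-14 controls, beside 43.9% and 40.1% of all genes. Beyond a fold change of 2 there were 9 (16.5%) and 15 (20.6%). The log2 fold change of HL-60 over Molm-14 controls was -5.72 ± 0.386 for RSAD2, -4.70 ± 0.0718 for XAF1 and -3.11 ± 0.219 for IFITM1. OAS3 was higher by 2.84 ± 0.101, LGALS3BP by 2.69 ± 0.254 and IFIT1 by 2.57 ± 0.192. ISG15 did not pass (-0.10 ± 0.104). OAS3 and OASL were higher in HL-60 cells, and OAS1 and OAS2 lower. All 5 genes of the PARP and DTX3L group were lower in HL-60 controls, as were all 4 membrane factors and all 4 transcription factors. IRF9 was among those lower (-0.527), and its sum with the read-through gene was higher in HL-60 cells (0.467, adjusted p = 0.00201), so its direction is uncertain.

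Levels can be compared between genes on the deposited TPM scale, which corrects for length. The median TPM of the 46 ISGs was 3.05 in Molm-14 controls, 2.76 with 11.1 pM and 3.83 with 100 pM, and it was 2.38, 4.23 and 8.78 in HL-60 controls, with 112.7 pM and with 500 pM. The number of ISGs at 10 TPM or more was 15, 15 and 13 in the Molm-14 groups and 7, 10 and 19 in the HL-60 groups. IFITM2 had the highest level in both control groups, 164 ± 0.962 TPM in Molm-14 and 113 ± 0.771 TPM in HL-60 cells (mean ± SD, n = 2). With 500 pM, IFITM2 stood at 142 ± 14.8 TPM in HL-60 cells. It was followed by BST2 at 69.1 ± 0.431 TPM, ISG15 at 65.3 ± 7.47 TPM, UBE2L6 at 49.5 ± 0.969 TPM, PML at 42.8 ± 1.02 TPM and IFI6 at 39.8 ± 1.69 TPM. BST2 and ISG15 were neighbours in that order that did not differ beyond their spread. GBP1 reached 0.735 ± 0.021 TPM.

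The promoters with and without the ISRE core did not separate the ISGs that rose in HL-60 cells. At 500 pM, 19 of the 22 tested ISGs with the core rose and 1 fell (median log2 fold change 1.82), and 13 of the 13 without it rose (median 1.55). In Molm-14 cells at 100 pM, 3 of the 22 with the core rose (median 0.08), and 9 of the 13 without it rose and 1 fell (median 0.37). Of all genes, 35.8% rose and 37.8% fell at 500 pM, and 22.9% and 21.9% did so at 100 pM. The other 10 tested ISGs had no promoter in the table used. These counts describe letters in a short window and were not tested.

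Transcripts of interferons themselves were at or near 0. Of 22 interferon genes, 19 had 0 counts in all 12 libraries, a count that allows a level of up to 0.0509 to 0.145 CPM per library (3 counts, counting error only). IFNA13 had 3 counts and IFNB1 had 2 counts in 500 pM replicate 2 of HL-60 cells, IFNE had 1 count in 500 pM replicate 1, and IFNB1 and IFNE had 1 count each in control replicate 2. Interferon transcripts were therefore not detectable at this depth in Molm-14 cells, and the few counts of HL-60 cells allow no comparison.

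Receptors and kinases of the pathway rose in part in both lines. Of 10 tested from a list of 11, 7 rose and the other 3 did not pass in Molm-14 cells at 100 pM. Of all genes, 22.9% rose there and 21.9% fell. In HL-60 cells 5 rose and 4 fell at 112.7 pM (24.2% and 27.4% of all genes). At 500 pM 6 rose and 3 fell (35.8% and 37.8% of all genes). The median log2 fold change of these 10 genes was 0.248 in Molm-14 cells at 100 pM, close to the 0.27 of the ISGs. In HL-60 cells at 500 pM it was 0.289, where that of the ISGs was 1.65. IFNGR2, a chain of the interferon gamma receptor, rose by 1.01 ± 0.0461 in HL-60 cells at 500 pM and by 0.24 ± 0.0488 in Molm-14 cells at 100 pM. TYK2 rose by 0.57 ± 0.046 and 0.44 ± 0.042. IFNAR2 rose by 0.46 ± 0.0625 in Molm-14 cells and by 0.52 ± 0.0742 in HL-60 cells at 112.7 pM, while IFNAR1 fell by 0.38 on the log2 scale at 112.7 pM.

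Sensors of nucleic acids and their adaptors rose in part. Of 17 tested from 18, 8 rose and the other 9 did not pass in Molm-14 cells at 100 pM, beside 22.9% of all genes that rose. In HL-60 cells 8 rose and 2 fell at 112.7 pM (24.2% and 27.4% of all genes), and 12 rose and 1 fell at 500 pM (35.8% and 37.8%). TICAM1, the adaptor of TLR3, rose by 2.05 ± 0.104 in HL-60 cells at 500 pM and 0.49 ± 0.0674 in Molm-14 cells. IFI16, a DNA sensor, rose by 1.88 ± 0.0617, IRF5 by 1.49 ± 0.0633 and MYD88, the adaptor of most Toll-like receptors, by 1.048 ± 0.0488 in HL-60 cells at 500 pM. CGAS and STING1, the sensor of cytosolic DNA and its partner, were looked up after other values were seen. CGAS had 0.03 ± 0.0604 and STING1 0.01 ± 0.0488 in HL-60 cells at 500 pM, and neither passed.

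Negative regulators numbered 14, of which 4 rose and 3 fell at 100 pM in Molm-14 cells (28.6% and 21.4%), near the shares of all genes (22.9% and 21.9%). In HL-60 cells 9 were higher and 3 lower at 112.7 pM, beside 24.2% and 27.4% of all genes, and 9 and 4 at 500 pM, beside 35.8% and 37.8%. SOCS3, a feedback inhibitor of JAK kinases, rose by 1.37 ± 0.117 in HL-60 cells at 500 pM, and the phosphatase PTPN6 by 0.85 ± 0.032. RNASEH2B, a subunit of RNase H2, had -0.67 ± 0.0377 there and -0.24 ± 0.0336 in Molm-14 cells. SAMHD1, a dNTP hydrolase, rose by 0.93 ± 0.0382 in Molm-14 cells at 100 pM. In HL-60 cells SAMHD1 was also higher at 500 pM, at 26.1 and 25.3 TPM beside 19.8 and 18.7 TPM in controls.

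Of 46 other interferon-induced genes, 43 were tested. In HL-60 cells 21 rose and 6 fell at 112.7 pM (24.2% and 27.4% of all genes), and 31 rose and 9 fell at 500 pM (35.8% and 37.8%). In Molm-14 cells at 100 pM 21 rose and 8 fell (22.9% and 21.9%). The RNA helicase genes HELZ2 and MOV10 rose by 3.86 ± 0.148 and 3.02 ± 0.0922 in HL-60 cells at 500 pM, and APOL1, which encodes an apolipoprotein, by 3.4 ± 0.13. TRIM22, a restriction factor, rose in both lines, by 1.88 ± 0.0766 at 500 pM and 1.55 ± 0.0406 at 100 pM, and it was the gene of this list that passed at 11.1 pM (0.31 ± 0.0422, adjusted p = 0.00106). APOL6 fell by 0.997 on the log2 scale in Molm-14 cells, and its value in HL-60 cells at 500 pM was 1.08 ± 0.0697. TNFSF10, the death ligand TRAIL, rose by 0.97 ± 0.116 in Molm-14 cells at 100 pM. In HL-60 cells TNFSF10 was also higher at 500 pM, at 14.7 and 14.4 TPM beside 6.27 and 6.53 TPM in controls. ADAR and TRIM21 are among the genes of this list that are also in another.

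**Figure D5:**
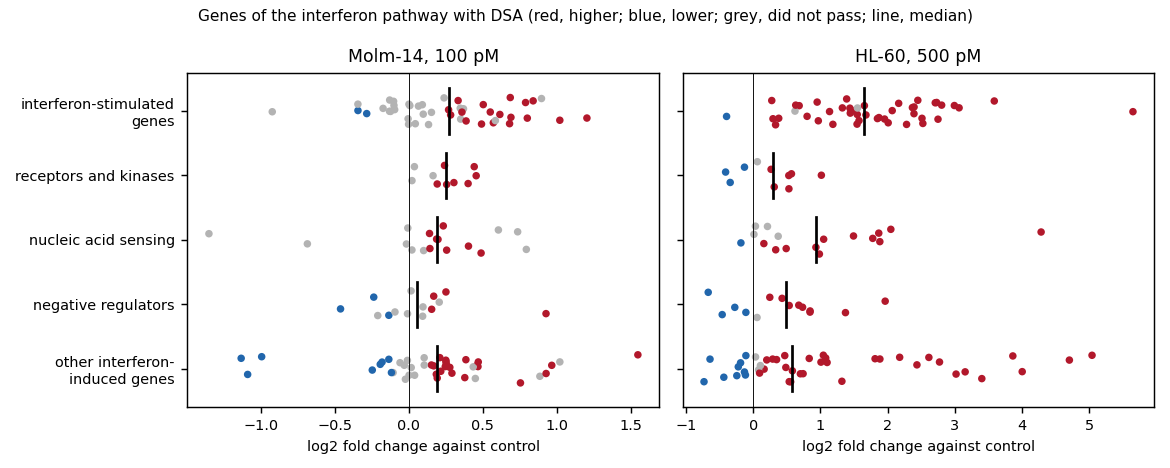
Log2 fold change against control of the tested ISGs and of 4 lists of pathway genes (rows) in Molm-14 cells at 100 pM (left) and HL-60 cells at 500 pM (right). Each point is a gene, red where it rose, blue where it fell and grey where it did not pass, and the vertical line is the median of the list. In HL-60 cells the median of the ISGs is 1.65 and that of the other interferon-induced genes 0.58.

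Markers of myeloid maturation moved with the ISGs in HL-60 cells, and so did markers of other cell types. Of all genes, 24.2% rose and 27.4% fell at 112.7 pM, and 35.8% rose and 37.8% fell at 500 pM. All 5 promyelocyte granule genes (MPO, ELANE, AZU1, PRTN3 and CTSG) fell at 500 pM, and their sum went from between 18400 and 18600 CPM in controls through between 14100 and 14400 CPM to between 6590 and 6610 CPM. Of 7 markers of mature monocytes and macrophages, 4 were tested and all 4 rose at both doses. Their list summed to between 65.8 and 66.3 CPM in controls, 129 CPM with 112.7 pM and between 218 and 220 CPM with 500 pM, with FCGR3A at 0 in all libraries. Of 6 markers of mature granulocytes, 4 were tested and 3 rose at 500 pM (sums of 90.5 to 90.8 CPM and 189 CPM). Both lymphocyte markers tested rose at 500 pM, CD3E by 2.97 ± 0.333 and NKG7 by 2.37 ± 0.0628, and the 4 of that list summed to between 12.3 and 12.9 CPM in controls and between 63.9 and 68.5 CPM at 500 pM, with MS4A1 at 0 in all libraries. KRT8 and COL1A1 of the epithelial, fibroblast and erythroid list rose, and that list summed to at most 1.07 CPM in controls and 3.93 CPM at 500 pM. PMEL of the melanoma list rose, and that list summed to at most 0.295 and 0.614 CPM. Of 3 plasmacytoid dendritic cell markers tested, LILRA4 rose and TCF4 fell. In Molm-14 cells at 100 pM the monocyte list went from 115 CPM to between 163 and 169 CPM. There CD68 and ITGAX rose, FCGR1A fell by 0.17 on the log2 scale and CD14 did not pass. The granulocyte list went from between 82.4 and 83.5 CPM to between 167 and 172 CPM. The sum of the promyelocyte granule list went up there too, from between 3540 and 3650 CPM to between 4110 and 4240 CPM, but its genes went different ways. On the TPM scale AZU1 went from 1853 and 1984 to 2373 and 2418, and CTSG and PRTN3 were also higher. MPO went down from 59.2 and 56.6 to 47.8 and 42.0 TPM, and ELANE from 1195 and 1256 to 1178 and 1153 TPM. Of all genes, 22.9% rose and 21.9% fell there. The share of counts from mitochondrial genes rose too, from 2.22% and 2.47% in HL-60 controls to 5.46% and 4.64% with 500 pM, and from 1.47% and 1.68% in Molm-14 controls to 4.10% and 2.72% with 100 pM. The part of these changes in the rise of the ISGs was not tested.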

How the data were processed

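The deposited files hold, per gene and library, expected counts and TPM estimated by the authors with RSEM (1.31) after trimming with Trim Galore (0.60) and mapping to hg38 with STAR (2.7) on GENCODE release 31. Expected counts are neither filtered nor scaled, and TPM, used as deposited, is relative to transcript length and library. The deposited FPKM values were not used. Symbols came from GENCODE release 44 (60261 identifiers matched), and 45 pseudoautosomal copies were dropped.

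Rounding gave whole counts. edgeR 4.0.16 (R 4.3.3) kept 13422 of 19868 protein-coding genes of level 1 or 2 by filterByExpr, scaled by TMM and fitted 1 mean per group over 12 libraries with glmQLFit. glmQLFTest gave 9 comparisons, with Benjamini-Hochberg adjustment at 0.05. An SE is the log2 fold change divided by the square root of F. The study named limma-voom, tried here (limma 3.58.1) with DESeq2 1.42.0, other scalings and filters, thinning, summed genes and left-out libraries. The test was checked on simulated data. For the low and the high dose against control, 20 of 194 and 15 of 186 calls were false in Molm-14 cells. In HL-60 cells 11 of 180 and 16 of 186 were false. The share of false calls was above 0.05 in each comparison, so calls near the threshold are less certain than it implies. Totals of 21177424 to 63927449 counts set the precision, and intervals cover counting error only.

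The members and lists were chosen with earlier results of these data known. Per-library values are given for the 4 transcription factors and, per dose, the 5 members with the largest increase and 3 with the largest decrease that passed, and likewise 5 in each direction between lines. Further members are given where they complete a role. Of each pathway list up to 4 genes with the smallest p per comparison are named, beside a pair looked up later and said to be so, and 1 gene is not reported here. Promoters are those of RefSeq.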

Additional observations from a re-analysis of the deposited data

Results flagged for a closer look

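The difference between the lines in the change with DSA (HL-60 minus Molm-14, on the log2 scale, by edgeR's interaction test) was singled out for the genes at either end of the list. At the high doses it was 3.19 for ISG20, 2.75 for IFI6, 2.68 for XAF1, 2.57 for OAS3, 2.46 for MX1 and -0.49 for SAMD9. At the near-equal doses of 112.7 and 100 pM it was 2.67 for EPSTI1, 1.33 for XAF1, 1.26 for OAS3, 1.22 for PARP14, 1.15 for IFITM1, -0.43 for SAMD9 and -0.20 for STAT2. XAF1, OAS3 and SAMD9 were singled out at both, in comparisons that share the controls of both lines. Dose, medium and serum differed with the line, so they cannot be told apart from it. EPSTI1 had at most 10 counts in any library. It passed the filter on low counts only through HL-60 libraries with DSA, which favoured its difference.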

How the results depend on the processing

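Of 54 values of single ISGs recomputed under 24 alternatives, 1236 of the recomputed values kept their direction and their side of the threshold, 34 no longer passed, 11 newly passed and 4 turned direction. Those 4 had not passed: IRF1 in Molm-14 cells at 11.1 pM (main value -0.01) was 0.011 with total counts alone, 0.059 without control replicate 1 and 0.053 without 11.1 pM replicate 2, and IRF9 there was -0.013 without control replicate 1. Over all libraries left out in turn they ran from -0.072 to 0.059 and from -0.013 to 0.464. Outside these values, IRF9 in HL-60 against Molm-14 controls turned from -0.527 to 0.467 when summed with its read-through gene. Asking for a fold change over 2 left 0 higher in Molm-14 cells at 11.1 pM, 2 higher and 0 lower at 100 pM, and 3 higher and 0 lower between their doses. It left 14 higher and 0 lower in HL-60 cells at 112.7 pM, 0 lower at 500 pM, 18 higher between their doses, 15 lower in HL-60 controls, 0 lower for the difference at high doses, and 8 higher and 0 lower at near-equal doses. ISGs lower in Molm-14 cells at 100 pM (2) became 1 with DESeq2 and 4 with no filter on low counts or only the groups compared, and those lower between its doses became 1 with DESeq2 or thinned libraries. At near-equal doses those lower (2) became 1, without STAT2, with RLE factors, total counts alone, DESeq2, no filter, genes of all types, only the groups compared or only genes with a mean of 50 counts or more. The causes were not tested.

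Leaving out each library in turn gave 39 to 42 ISGs higher in HL-60 cells at 500 pM, 30 to 36 at 112.7 pM, 13 to 18 in Molm-14 cells at 100 pM and 0 to 1 at 11.1 pM. It gave 1 to 2 lower in Molm-14 cells at 100 pM, 15 to 19 higher and 1 to 3 lower between their doses, and 35 to 38 higher and 0 to 1 lower between the doses of HL-60 cells. It gave 12 to 14 higher and 22 to 24 lower in HL-60 controls, 32 to 35 higher at the high doses, and 15 to 21 higher and 1 to 2 lower at near-equal doses. A group left with 1 library was assumed to vary like the others.

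With DESeq2, 14 ISGs were higher in Molm-14 cells at 100 pM, 32 in HL-60 cells at 112.7 pM and 41 at 500 pM. With library totals as the only scaling, the all-gene median became 0.176 in HL-60 cells at 500 pM, 0.112 between its doses and 0.127 for the difference at high doses, and no ISG lost its call in HL-60 cells. The sum of IRF9 with its read-through gene was the alternative added after seeing the data.

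Same-numbered libraries did not deviate together across groups (correlations from -0.07 to 0.075), so the numbers were not taken to pair them. With the replicate block, 18 ISGs were higher in Molm-14 cells at 100 pM, 36 and 42 in HL-60 cells at 112.7 and 500 pM, and 14 higher and 22 lower in HL-60 controls. Depth limits GBP1, RSAD2 in HL-60 cells, IFI27, IFI44L and EPSTI1, which rest on few counts.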
